A study of Mus musculus with 24 samples.

Results

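The diet effect described here was measured in stroma of tumours that carried the hairpin shEGR2_40.9. It is the difference between 3 mouse expression arrays from hosts fed a palmitic acid-rich (PA-rich) diet and 3 arrays from hosts fed the control diet. These 6 arrays were chosen by their titles from the 24 of the series, and all 11844 genes that passed a filter on dim probe sets were tested. The RNA came from stromal cells labelled as the neural fraction, taken from orthotopic xenografts of SCC25, an established human oral squamous carcinoma line. The hosts were NSG mice, an immunodeficient strain that lacks mature T, B and natural killer cells.

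The 2 groups compared were shEGR2_40.9 on the PA-rich diet and shEGR2_40.9 on the control diet, and both carried the hairpin. The same 2 diets were used with shEGR2_38.9, another hairpin against EGR2, with shGAL, a hairpin against GAL, and with PLKO, the non-targeting hairpin, again with 3 arrays in each group. The tumour cells that carry the hairpins are human and the arrays are of mouse genes, so mouse Egr2 and Gal levels are no check of the silencing. EGR2 encodes a transcription factor known for its part in myelination, and GAL encodes the neuropeptide galanin. The labels do not say whether a hairpin line was 1 clone, whether animals were pooled, or the age and sex of the mice. The series calls the 3 arrays of a group technical replicates, so the p-values measure only the spread between these arrays.

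Palmitic acid is a saturated fatty acid that cells take up or make themselves, and it can be burned, built into membranes or desaturated. Blood and lymphatic vessels are lined by endothelial cells, which rest on a basement membrane of type IV collagen, laminins, nidogen and perlecan. Lymphatic endothelium is set apart from blood endothelium by the transcription factor Prox1 and by Flt4, the receptor for the lymphangiogenic VEGF ligands. Peripheral nerves run beside vessels and hold Schwann cells, axons, fibroblasts, macrophages and their own small vessels.

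All levels are log2 values summarised per probe set by RMA, 1 probe set standing for each gene. The labelled cell fraction was first set against defining markers. The neuronal genes Snap25 and Nefl and the glial genes S100b and Gfap were below the floor of 6.27 on the log2 scale used for dim genes, at 4.51, 5.12, 5.83 and 5.42 on the PA-rich diet and at 4.56, 5.03, 5.75 and 5.29 on the control diet. Sox10, the transcription factor of Schwann cell identity, was above it, at 7.46 ± 0.06 on the PA-rich diet and 7.47 ± 0.18 on the control diet (SD, n = 3 each). The neuronal tubulin gene Tubb3 was at 9.33 ± 0.09 on the PA-rich diet and 9.42 ± 0.14 on the control diet (SD, n = 3 each), and the neuregulin receptor gene Erbb3 at 10.85 ± 0.02 and 11.04 ± 0.04. Ptprc, the pan-leukocyte marker, was below the floor on both diets, at 4.41 and 4.43. The keratin genes Krt5 and Krt14 were at 12.95 and 13.21 on the PA-rich diet and at 12.89 and 13.16 on the control diet, on arrays whose highest value was 13.6. Keratins mark squamous epithelium, and whether human tumour RNA bound mouse probe sets was not tested. The arrays thus hold epithelial transcripts, while 4 of the neuronal and glial markers checked were dim, and the name of the fraction is used here only as the label. Array medians lay between 6.71 and 6.81, and those of the 6 arrays compared between 6.77 and 6.81. The third control diet array of shEGR2_38.9 differed from all others in its Gapdh 3′ minus 5′ control signal, at 0.76 against -0.12 to 0.08. It enters the spread estimate shared by all 8 groups. For the comparison with shEGR2_38.9, the gene count and some single genes are also given without it, and the list counts only with it.

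On the PA-rich diet, 9 of 13 lymphatic endothelial genes and 22 of 26 pan-endothelial genes were lower, as were 5 of 17 basement membrane genes. Of the cell cycle genes 14 of 44 were higher, of the sterol synthesis genes 7 of 21 and of the interferon response genes 4 of 16, each by less than 1 on the log2 scale. Of the 11844 genes tested, 1060 (8.95%) passed an adjusted p of 0.05 in limma with Benjamini-Hochberg adjustment, 618 lower (5.22%) and 442 higher (3.73%). The falls were larger than the rises: 116 genes (0.979%) fell by more than 1 on the log2 scale, a change of over 2-fold, and only Lgi2 and Sostdc1 (0.0169%) rose by that much. A renewed quantile normalization gave 577 lower and 557 higher. Without PA-rich replicate 2 or PA-rich replicate 3 the count was 689 or 691, and the number of higher genes was between 238 (without PA-rich replicate 2) and 356 (without control replicate 2) with any 1 of the 6 arrays left out. The median change over all genes was 0.03. In bulk RNA, fewer cells of a type and less RNA per cell cannot be told apart, and this holds for each cell-type list below. The gene lists and members were chosen with earlier results of these data known, and list counts are set beside the background of 5.22% lower and 3.73% higher.

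**Figure D1:**
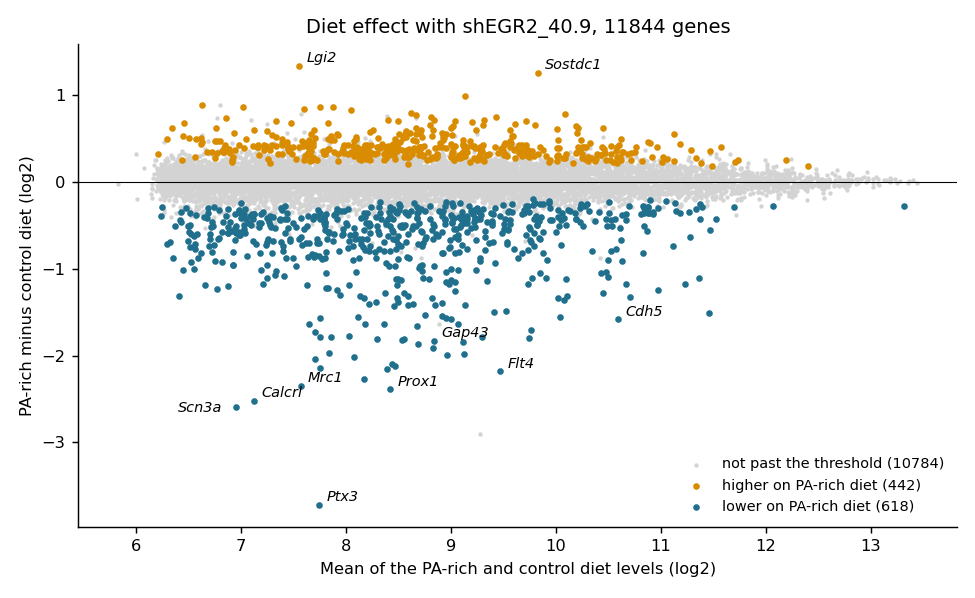
Each point is 1 of the 11844 genes tested, with the mean of its PA-rich and control diet levels across and the PA-rich minus control diet difference upward, both on the log2 scale. Of the coloured genes, which passed the adjusted p of 0.05, 618 lie below 0 and 442 above, and differences beyond -1 are far more frequent than those beyond 1.

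Lymphatic endothelial genes had the lowest median of the 45 lists, at -1.38, and of 13 tested members 9 fell and 0 rose. Prox1, the master regulator of lymphatic identity, was at 7.43, 7.52 and 6.74 in the 3 PA-rich diet arrays, against 10.09, 9.24 and 9.54 in the 3 control diet arrays. Every PA-rich array was thus below every control array, and the change was -2.39 (SE 0.33, adjusted p = 4.15e-05), a 5.25-fold lower level. Flt4, the VEGF receptor of lymphatic endothelium, had levels of 8.61, 8.56 and 7.98 on the PA-rich diet, against 10.77, 10.31 and 10.61 on the control diet, and fell by 2.18 (SE 0.21, adjusted p = 5.17e-07). The groups did not overlap for either gene, as was the case for 13.8% of all genes in the lower direction. Reln encodes the secreted glycoprotein reelin, known from neuronal migration and also made by lymphatic endothelium. It was at 7.70, 7.24 and 7.03 on the PA-rich diet, against 9.82, 9.29 and 9.30 on the control diet, a change of -2.15 (SE 0.21, adjusted p = 5.46e-07). Mmrn1 (multimerin, -1.98), Itga9 (the integrin alpha subunit needed for lymphatic valves, -1.81), Ackr2 (a chemokine-scavenging receptor, -1.77) and Nr2f2 (a transcription factor of veins and lymphatics, -1.38) fell as well. Lyve1, the hyaluronan receptor of lymphatic endothelium, fell by a smaller 0.90 (SE 0.09, adjusted p = 1.16e-06), with levels of 10.07, 9.99 and 10.06 on the PA-rich diet and 11.08, 10.86 and 10.90 on the control diet. Nrp2, a co-receptor for VEGF and semaphorins, changed by -0.37 (adjusted p = 0.0258), and this call held in 1 of 6 fits that each left out 1 array of the pair of groups, against 6 of 6 for the other 8 falling members. Pdpn (0.06), Tbx1 (-0.20), Stab2 (-0.04) and Gja4 did not pass the test, and Pdpn is also expressed by epithelium and fibroblasts. In all, 11 of the 13 tested members had a negative change, and Pdpn and Gja4 did not.

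Pan-endothelial genes were lower across nearly the whole list: 22 of 26 tested members fell, 0 rose, and the median was -0.94. Cdh5 encodes VE-cadherin, the adhesion molecule of endothelial junctions. Its levels were 9.79, 9.99 and 9.62 on the PA-rich diet, against 11.49, 11.21 and 11.44 on the control diet, a change of -1.58 (SE 0.16, adjusted p = 7.77e-07). Other junction genes fell, the adhesion gene Pecam1 (-1.05) and Cldn5, a claudin of tight junctions (-1.02). Among transcription factors, Erg, an ETS factor of endothelial identity (-1.07, SE 0.19, adjusted p = 0.000619), and Sox7 (-0.77, SE 0.12, adjusted p = 0.000211) fell. Its relative Sox18 changed by -0.26 (adjusted p = 0.145). Surface and guidance receptor genes followed, with the sialomucin genes Cd34 at -1.64 and Emcn at -1.42 and the endothelial roundabout receptor gene Robo4 at -1.33. Nos3, the endothelial nitric oxide synthase, was at 7.60, 7.67 and 7.35 on the PA-rich diet and at 8.58, 8.14 and 8.29 on the control diet (-0.79, adjusted p = 0.00763). Vwf, the clotting factor stored in endothelial granules, had PA-rich levels of 8.31, 8.70 and 7.82 and control levels of 9.19, 9.15 and 9.11, and its change of -0.87 did not pass (SE 0.36, adjusted p = 0.158). Of the 22 falling members, 16 stayed past the threshold in each of the 6 fits with 1 array left out. Without a single array, the count of falling members ran from 16 to 22.

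The ligands and receptors of the VEGF, angiopoietin and apelin systems, which direct vessel growth and stability, had 8 of 15 tested members lower, 0 higher and a median of -0.51. Angpt2, the ligand by which activated endothelium loosens its junctions, was at 7.82, 7.81 and 8.00 on the PA-rich diet, against 10.14, 9.58 and 9.62 on the control diet (-1.91, SE 0.18, adjusted p = 4.4e-07). Receptor genes of these systems also fell, with Tie1 at -1.78, Kdr, the main VEGF receptor of blood endothelium, at -1.42 and Tek, the angiopoietin receptor, at -1.24. The decoy receptor gene Flt1 had levels of 9.24, 8.86 and 9.33 on the PA-rich diet and of 9.52, 9.59 and 9.86 on the control diet, and its change of -0.51 did not pass (adjusted p = 0.0623). Pgf, the placental growth factor, fell by 0.77 (adjusted p = 0.00159) to a mean below the dim floor, 6.18, against 6.95 on the control diet. The ligand genes Vegfa (0.01) and Vegfb (0.10) did not pass. Of the 8 lower members, Angpt2, Kdr, Tek, Tie1, Flt4 and Nrp2 also belong to the endothelial lists, so these lists are not separate evidence.

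Calcrl is the receptor shared by the vasodilator peptides CGRP and adrenomedullin, and sensory nerves release CGRP. Its levels were 5.97, 5.94 and 5.71 on the PA-rich diet, against 8.27, 8.37 and 8.54 on the control diet. The 3 PA-rich levels lay below the dim floor of 6.27, so the fitted change of -2.52 (SE 0.21, adjusted p = 1.37e-07) is not an exact fold. Without the control diet groups of the EGR2 hairpins, the mean of Calcrl would not have passed the filter. Calcrl was the only 1 of 7 tested members of the CGRP and adrenomedullin list to pass. Its partner genes Ramp2 (-0.06) and Ramp1 (0.07), and the ligand genes Adm (-0.06) and Calcb (-0.34), did not.

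**Figure D2:**
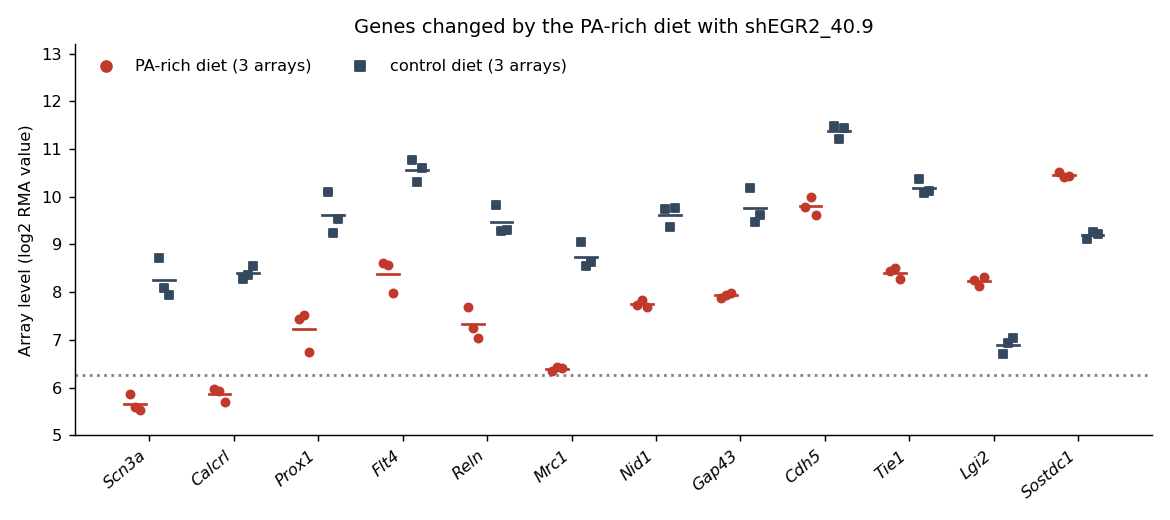
Points are the levels of single arrays on the log2 scale, with circles for the 3 PA-rich diet arrays and squares for the 3 control diet arrays of shEGR2_40.9, horizontal bars for group means and a dotted line at the dim floor of 6.27. In the 10 genes from Scn3a to Tie1 every PA-rich array lies below every control array, and in Lgi2 and Sostdc1 every PA-rich array lies above. All were chosen among genes past the threshold, where 611 of 618 falls and 437 of 442 rises did not overlap. Over all genes tested the shares were 13.8% lower and 17.4% higher.

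The lists of other cell types had weaker medians than the endothelial lists, the lowest being -0.47 for fibroblast genes. Single members, Mrc1 and Fabp4 among them, fell by far more than those medians. Of 11 tested pericyte and smooth muscle genes 0 rose and 0 fell, with a median of 0.00. Acta2, the smooth muscle actin, was at 11.29 ± 0.08 on the PA-rich diet and 11.30 ± 0.11 on the control diet (SD, n = 3 each). Pdgfrb, the receptor that marks pericytes, was at 6.95 ± 0.16 on the PA-rich diet and 7.12 ± 0.17 on the control diet (-0.17, adjusted p = 0.41). Of 7 tested macrophage genes only Mrc1 and Cd14 fell. Mrc1, the mannose receptor gene, which lymphatic endothelium also expresses, was at 6.34, 6.44 and 6.41 on the PA-rich diet, against 9.06, 8.54 and 8.63 on the control diet (-2.35, SE 0.16, adjusted p = 9.2e-09). The macrophage genes Cd68 (0.11) and Csf1r (0.11) did not pass, with adjusted p of 0.574 and 0.466. The erythroid gene Alas2, the first enzyme of haem synthesis, fell by 1.03 (adjusted p = 5.85e-05), and the haemoglobin gene Hba-a1 was also lower (-0.27, adjusted p = 0.0153). Fabp4, a fatty acid carrier of adipocytes and of capillary endothelium, was at 9.26, 9.16 and 8.14 on the PA-rich diet, against 10.79, 10.67 and 10.50 on the control diet (-1.80, SE 0.35, adjusted p = 0.00143). The other 2 tested adipocyte genes did not pass. None of the tested neutrophil (2), lymphocyte (4), mast cell (1) and skeletal muscle (6) genes passed in either direction. The lists named 9 neutrophil, 10 lymphocyte and 6 mast cell genes. Most of these were dim or not measured, so these lists say little about those cells.

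Basement membrane genes split by member. Nid1, Col4a2, Col4a1, Lamc1 and Hspg2 fell, and the other 12 of 17 tested members did not pass, so that the list median was only -0.13. The Hspg2 call held in 3 of 6 fits with an array left out (adjusted p up to 0.0888), and the other 4 calls held in all 6. Nid1, which links laminin to type IV collagen, was at 7.74, 7.84 and 7.68 on the PA-rich diet, against 9.75, 9.37 and 9.76 on the control diet (-1.87, SE 0.13, adjusted p = 9.2e-09). Col4a1 and Col4a2 encode the chains of the common type IV collagen. Col4a1 was at 10.41, 10.43 and 10.22 on the PA-rich diet and at 11.86, 11.46 and 11.44 on the control diet (-1.24, SE 0.17, adjusted p = 3.65e-05). Col4a2 was at 8.15, 8.39 and 7.97 on the PA-rich diet and at 9.97, 9.61 and 9.64 on the control diet (-1.57, SE 0.22, adjusted p = 3.86e-05). Neither gene's groups overlapped. The start sites of this gene pair lie 21 bases apart on opposite strands of chromosome 8, so their promoter windows, 250 bases before to 50 after the start in RefSeq's GRCm38.p6 table, share 78 bases. The window of Col4a2, chr8:11312555-11312854 on the plus strand, is shown because both falling genes start from it, with its CCAAT box in capitals.

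Col4a2: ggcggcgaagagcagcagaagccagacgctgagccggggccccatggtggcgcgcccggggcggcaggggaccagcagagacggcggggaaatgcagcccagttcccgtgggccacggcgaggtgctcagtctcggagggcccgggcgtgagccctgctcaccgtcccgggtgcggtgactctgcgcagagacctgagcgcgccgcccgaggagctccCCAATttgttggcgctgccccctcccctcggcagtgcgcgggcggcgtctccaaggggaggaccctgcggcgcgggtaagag

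Of 25 interstitial matrix genes, 8 fell and 1 rose, with a median of -0.40. Fn1, which encodes fibronectin, was at 8.16, 8.12 and 8.32 on the PA-rich diet, against 10.34, 9.85 and 9.94 on the control diet (-1.84, SE 0.26, adjusted p = 5.37e-05). The collagen genes Col5a2 (-1.39) and Col6a1 (-1.03) fell, as did Fbln5 (-1.08), which helps to assemble elastic fibres. Bgn, a small proteoglycan, changed by -1.66 (adjusted p = 0.0118), a call lost without PA-rich replicate 1 or control replicate 1, and Postn and Dcn also lost their calls without single arrays. Tgfbi, a matrix adaptor protein, rose by 0.36 (adjusted p = 0.0113, and 0.0643 without PA-rich replicate 3). The main fibrillar collagens of fibroblasts varied widely within groups. Col3a1 was at 6.06, 8.32 and 9.11 on the PA-rich diet and at 11.21, 10.83 and 10.15 on the control diet, and its change of -2.90 did not pass (SE 0.98, adjusted p = 0.0699). Col1a1 was at 7.10, 7.94 and 9.17 on the PA-rich diet and at 10.35, 9.95 and 8.81 on the control diet, where the groups overlapped (-1.63, adjusted p = 0.169). Of 8 fibroblast markers 4 fell (Postn, Thy1, Dcn and S100a4) and Fbln1 rose by 0.42, and Thy1, at -0.50, alone kept its call in all 6 fits with an array left out.

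Matrix proteases and their inhibitors had 8 of 19 members lower, 1 higher and a median of -0.42. Of the 8 falls, 5 kept their call in all 6 fits with an array left out. Adamts9 (-0.95) kept it in 0 of 6 and Serpinf1 (-0.41) in 1 of 6. Adam12, a membrane metalloprotease of mesenchymal and tumour-associated cells, was at 6.61, 7.31 and 7.20 on the PA-rich diet, against 9.84, 8.87 and 9.22 on the control diet (-2.27, SE 0.27, adjusted p = 5.82e-06). The inhibitor genes Timp2 (-1.55, adjusted p = 8.33e-07) and Timp3 (-1.31, adjusted p = 3e-05) also fell. The tissue plasminogen activator gene Plat, made by endothelium, fell by 1.11. Mmp10 (stromelysin 2) rose by 0.68 (adjusted p = 0.0155), with levels of 8.01, 7.98 and 7.48 on the PA-rich diet and 7.28, 6.94 and 7.21 on the control diet, but lost the call in 3 of 6 fits with an array left out (highest adjusted p = 0.0889). Of 14 integrin genes, Itga9, Itgb3 (-0.82) and Itgb6 (-0.30) fell, and Itgb6 kept its call in 1 of 6 fits with an array left out.

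Inflammatory genes had 10 of 29 members lower, 1 higher and a median of -0.21, and the falls included adhesion molecules of activated endothelium. Of the 10 falls, 5 kept their call in all 6 fits with an array left out. The 1 rise, Il18 (0.50), kept its call in 1 of 6. Sele, the E-selectin gene, was at 7.77, 8.23 and 7.83 on the PA-rich diet, against 9.69, 9.55 and 8.80 on the control diet (-1.40, SE 0.32, adjusted p = 0.00621). Selp, the P-selectin gene, fell by 1.11 (adjusted p = 0.0116, and 0.0682 without PA-rich replicate 3), and Vcam1, a ligand for leukocyte integrins, was also lower (-1.05, adjusted p = 0.00143). Icam1 changed by -0.21 and did not pass (adjusted p = 0.176). The chemokine gene Ccl5 (-0.87) and Csf1 (-0.54), which encodes a growth factor of macrophages, fell. Saa3, an acute phase gene, was at 6.14, 7.77 and 6.15 on the PA-rich diet, against 8.99, 6.95 and 10.23 on the control diet. Its groups overlapped, and the call (-2.04, adjusted p = 0.0292) held in only 2 of 6 fits with an array left out and was lost with scan batch as a block (adjusted p = 0.0542). Ptx3, a soluble pattern recognition protein, had the lowest change of all genes tested. It was at 5.72, 5.97 and 5.97 on the PA-rich diet, below the dim floor, against 9.69, 9.30 and 9.83 on the control diet (-3.72, SE 0.45, adjusted p = 7.99e-06). Ptx3 lay below the floor on the PA-rich diet, so its change is not an exact fold. Its other probe set was dim, at 6.26 on the PA-rich diet and 6.15 on the control diet, and differed by 0.11.

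Genes of nerve and glia gave single large changes rather than list-wide ones. Scn3a encodes a voltage-gated sodium channel alpha subunit of the nervous system. It was at 5.86, 5.60 and 5.53 on the PA-rich diet, below the dim floor, against 8.71, 8.09 and 7.95 on the control diet (-2.59, SE 0.20, adjusted p = 5.08e-08), and its other probe set was dim on both diets, at 5.07 and 5.08. Scn3a passed the filter on dim genes only through the control diet groups of the EGR2 hairpins. No other of the 12 tested voltage-gated channel genes passed. Gap43, a growth cone protein of extending axons and of repair Schwann cells, was at 7.88, 7.94 and 7.98 on the PA-rich diet, against 10.19, 9.47 and 9.62 on the control diet (-1.83, SE 0.16, adjusted p = 1.98e-07). It was the only 1 of 11 neuronal genes to pass, and Tubb3 changed by -0.09. Among Schwann and glial genes the neurotrophin receptor gene Ngfr rose by 0.43 and Cadm4 fell by 0.37, among myelin genes Mal rose by 0.55, and among repair genes Sox2 rose by 0.54, yet each of these 4 calls was lost without 2 or more single arrays. Egr2 was at 11.77, 11.85 and 11.84 on the PA-rich diet and at 11.37, 11.54 and 11.56 on the control diet, a change of 0.33 that did not pass (SE 0.11, adjusted p = 0.0566). Gal changed by 0.15 (adjusted p = 0.432). Guidance cues had 5 of 29 members lower and 0 higher, with Ntn1 (netrin 1, also an angiogenic cue) at -1.11, Sema6a at -0.91, the endothelial semaphorin receptor gene Plxnd1 at -0.53 and Sema3a at -0.50. Galnt15, an enzyme that starts mucin-type sugar chains (-1.99, SE 0.28, adjusted p = 5.06e-05), and Olfm1, a secreted olfactomedin protein of neurons (-1.82, SE 0.20, adjusted p = 1.86e-06), were among the largest falls. Of the hyaluronan synthases Has2 fell by 1.13 (SE 0.13, adjusted p = 5.84e-06) and Has3 rose by 0.51 (SE 0.10, adjusted p = 0.00192).

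The 25 largest falls also held genes outside these roles. Among them were Clic5, an intracellular chloride channel protein (-2.10), Slc45a3, a solute carrier (-2.12), and Slc38a4, an amino acid transporter (-1.81). Selenop, the plasma carrier of selenium, was at 7.07 ± 0.05 on the PA-rich diet, against 9.08 ± 0.12 on the control diet (SD, n = 3 each; -2.02, SE 0.23, adjusted p = 3.5e-06). Myct1, a gene of endothelial cells (-2.14), Fgl2, a membrane prothrombinase (-1.97), and the zinc finger gene Zfp521 (-1.79) fell too. All 25 named falls kept their sign and their call under every alternative setting run for this comparison.

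**Figure D3:**
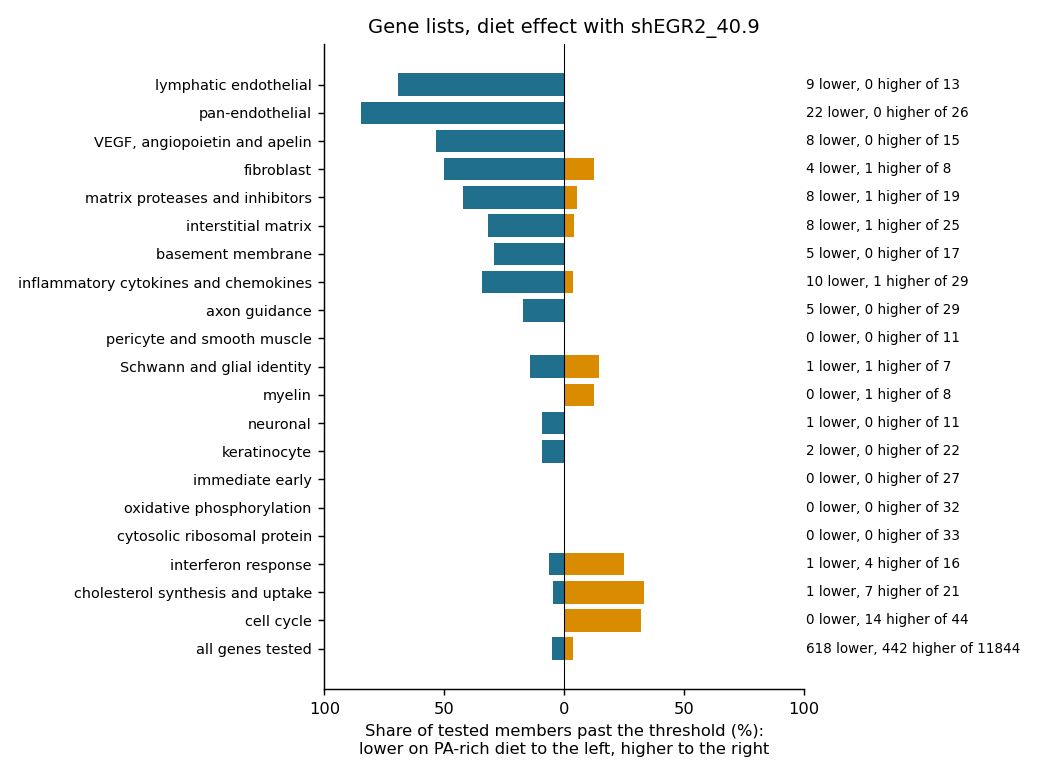
Bars give, for each gene list, the percentage of its tested members that passed the adjusted p of 0.05 lower (left) or higher (right) on the PA-rich diet with shEGR2_40.9, with the counts beside them. Pan-endothelial (22 of 26) and lymphatic (9 of 13) members lie far to the left of all genes tested (618 of 11844), and cell cycle (14 of 44) and cholesterol (7 of 21) members reach to the right.

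The rises were smaller and fell in other groups. Lgi2, a secreted leucine-rich glioma-inactivated protein of synapses, was at 8.26, 8.12 and 8.31 on the PA-rich diet, against 6.71, 6.93 and 7.03 on the control diet (1.34, SE 0.15, adjusted p = 1.97e-06). Sostdc1, a secreted BMP and Wnt antagonist of skin and tooth, was at 10.51, 10.42 and 10.44 on the PA-rich diet, against 9.11, 9.27 and 9.21 on the control diet (1.26, SE 0.11, adjusted p = 3.84e-07). All PA-rich arrays lay above all control arrays in both genes, as in 17.4% of all genes in the higher direction. Nat8l, which makes the neuronal metabolite N-acetylaspartate, rose by 0.99, Cyp7b1, an oxysterol hydroxylase, by 0.87, Aqp9, a glycerol and water channel, by 0.84, and B4galnt1, a ganglioside synthase, by 0.72. Tmigd1 (an epithelial adhesion protein) and Tent5a (a poly(A) polymerase) rose by 0.89 and 0.87, and the kinase gene Tnik by 0.83. In skin and placode biology, Edaradd, the adaptor of ectodysplasin signalling, rose by 0.69 and the protease gene Tmprss4 by 0.72, while the ectodysplasin A2 receptor gene Eda2r fell by 0.92.

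Cell cycle genes had 14 of 44 members higher, 0 lower and a median of 0.27. The members belonged to both DNA replication and mitosis. Cenpa, the centromeric histone, was at 10.46, 10.61 and 10.47 on the PA-rich diet, against 9.64, 10.17 and 9.79 on the control diet (0.65, SE 0.10, adjusted p = 0.000121). Cdc20, the activator of the anaphase-promoting complex, was at 10.73, 10.86 and 10.70 on the PA-rich diet and at 10.08, 10.36 and 9.99 on the control diet (0.62, SE 0.14, adjusted p = 0.00583). Ccnb2, a mitotic cyclin, rose by 0.52 (SE 0.09, adjusted p = 0.00057), Ube2c, which passes ubiquitin in anaphase, by 0.57, and the survivin gene Birc5 by 0.49. Of the replication helicase genes Mcm2 rose by 0.42 and Mcm5 by 0.44. With an array left out, Mcm2 kept its call in 5 of 6 fits and Mcm5 in 0 of 6 (adjusted p up to 0.118). Mki67 (0.07) and Pcna (-0.06) did not pass. Outside the list but among the 25 largest rises were Cdc25b, the phosphatase that starts mitosis (0.80), Cdkn3 (0.75), the uracil DNA glycosylase gene Ung (0.75) and the kinetochore gene Knstrn (0.70, or 0.23 and not past the threshold on its most variable probe set). Of the 14 members, 6 kept their call in all 6 fits with 1 array left out, and the count ran from 6 to 13. Which cells these transcripts came from was not tested.

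Sterol synthesis genes had 7 of 21 members higher, 1 lower and a median of 0.20. Nsdhl, a sterol demethylation enzyme, was at 9.48, 9.27 and 9.45 on the PA-rich diet, against 8.73, 8.59 and 8.75 on the control diet (0.71, SE 0.10, adjusted p = 5.96e-05). Fdps, which makes farnesyl diphosphate, was at 9.35, 9.31 and 9.32 on the PA-rich diet, against 8.77, 8.78 and 8.53 on the control diet (0.63, SE 0.07, adjusted p = 4.49e-06). Idi1 (0.54), Fdft1 (0.44), Cyp51 (0.39), Mvk (0.37) and Tm7sf2 (0.26, adjusted p = 0.0527 with scan batch as a block) also rose, and Nsdhl, Fdps and Cyp51 kept their calls in all 6 fits with an array left out. Abcg1, the exporter of cholesterol to lipoproteins, fell by 1.19 (SE 0.21, adjusted p = 0.000475). In fatty acid synthesis 4 of 22 members rose and 1 fell. The elongase gene Elovl6, which extends palmitate, rose by 0.57 (SE 0.12, adjusted p = 0.00309), and Acaca, the committing enzyme, rose by 0.31. The desaturase gene Scd1 was at 9.23 ± 0.10 on the PA-rich diet and 8.92 ± 0.12 on the control diet (SD, n = 3 each), with an adjusted p of 0.0499 that was 0.053 with scan batch as a block and was lost in 5 of 6 fits with an array left out. In fatty acid uptake and oxidation 0 of 21 members rose, and Fabp4, the lipase inhibitor gene Angptl4 (-0.89) and the electron transfer gene Etfdh (-0.25, adjusted p = 0.0637 with scan batch as a block) fell. Etfdh kept its call in 0 of 6 fits with an array left out.

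Promoters of 3 of these rising genes are shown because the members moved together and share short motifs. These are RefSeq's GRCm38.p6 windows from 250 bases before to 50 after the start, with CCAAT boxes in capitals in either strand's reading (CCAAT or ATTGG), and for Ccnb2 and Cdc20 also the cell cycle homology motif TTTGAA (or TTCAAA). Ccnb2 lies at chr9:70421505-70421804 (minus strand), Cdc20 at chr4:118437294-118437593 (minus strand) and Nsdhl at chrX:72918271-72918570 (plus strand). The fourth window, that of the falling endothelial gene Robo4 at chr9:37401722-37402021 (plus strand), has in capitals the ETS motif CAGGAAG, searched together with CCGGAAG on both strands.
Ccnb2: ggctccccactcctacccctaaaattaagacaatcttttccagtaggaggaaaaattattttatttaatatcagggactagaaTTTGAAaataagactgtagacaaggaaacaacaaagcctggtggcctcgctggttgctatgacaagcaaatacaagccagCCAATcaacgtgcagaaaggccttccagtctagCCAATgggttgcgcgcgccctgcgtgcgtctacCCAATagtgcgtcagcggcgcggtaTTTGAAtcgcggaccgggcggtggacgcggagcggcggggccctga
Cdc20: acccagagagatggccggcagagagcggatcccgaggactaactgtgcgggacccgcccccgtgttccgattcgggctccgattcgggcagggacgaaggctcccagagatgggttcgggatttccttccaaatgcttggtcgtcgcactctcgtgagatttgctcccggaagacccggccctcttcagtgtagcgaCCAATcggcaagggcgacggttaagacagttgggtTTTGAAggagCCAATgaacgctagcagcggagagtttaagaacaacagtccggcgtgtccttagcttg
Nsdhl: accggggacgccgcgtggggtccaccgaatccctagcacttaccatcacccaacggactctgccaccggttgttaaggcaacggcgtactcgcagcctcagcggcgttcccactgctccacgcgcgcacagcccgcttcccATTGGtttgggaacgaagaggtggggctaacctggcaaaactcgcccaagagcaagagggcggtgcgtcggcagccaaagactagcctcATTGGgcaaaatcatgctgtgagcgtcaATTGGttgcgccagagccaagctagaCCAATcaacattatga
Robo4: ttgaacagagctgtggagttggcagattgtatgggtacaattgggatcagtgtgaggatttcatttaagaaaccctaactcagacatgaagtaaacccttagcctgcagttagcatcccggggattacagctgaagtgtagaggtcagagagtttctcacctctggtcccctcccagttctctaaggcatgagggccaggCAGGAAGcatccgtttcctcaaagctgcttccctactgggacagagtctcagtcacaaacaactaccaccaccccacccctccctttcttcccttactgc

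The CCAAT box was found in 27 of the 34 cell cycle promoters that matched the table (79.4%) and in 15 of 16 sterol synthesis promoters (93.8%), whether or not the gene rose, against 38.1% of the 9502 promoters of genes tested. TTTGAA was found in 16 of 34 cell cycle promoters (47.1%), in 0 of 16 sterol synthesis promoters, and in 11.9% of all genes tested. An ETS motif was found in 5 of 12 matched pan-endothelial promoters, in 23 of 81 matched genes that fell by more than 1 (28.4%), in 99 of 466 matched genes among all that fell (21.2%) and in 27.2% of genes tested. A base can count toward more than 1 motif. These are counts of letters in a window and were not tested.

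The interferon response list had 4 of 16 members higher, 1 lower and a median of 0.22. Usp18, the protease that removes ISG15, was at 9.05 ± 0.07 on the PA-rich diet, against 8.28 ± 0.27 on the control diet (SD, n = 3 each; 0.77, SE 0.13, adjusted p = 0.00027). Oas2, a sensor of double-stranded RNA, rose by 0.57 (adjusted p = 0.000121), and the RNA sensor genes Dhx58 (0.41) and Ifih1 (0.34, adjusted p = 0.0668 with scan batch as a block) rose too. With an array left out, Dhx58 kept its call in 4 of 6 fits and Ifih1 in 2 of 6. Oas1c, a relative of Oas2 outside the list, rose by 0.87 and the complement protease gene C1s1 by 0.79. Rsad2, the antiviral gene for viperin, went the other way and fell by 0.53 (adjusted p = 0.0244, lost in 4 of 6 fits with an array left out). Of 16 clock genes Per2 (0.66), Hlf (0.43) and Cry2 (0.37) rose, and Nr1d2 (-0.60) and Npas2 (-0.43) fell. With an array left out, Cry2 kept its call in 1 of 6 fits (adjusted p up to 0.201) and Npas2 in 3 of 6 (up to 0.0741). Oxidative phosphorylation (32 genes), cytosolic ribosomal protein (33) and immediate early genes (27) had 0 members past the threshold in either direction. Of 22 keratinocyte genes the cornified envelope genes Sprr1a (-0.74) and Sprr1b (-0.58) fell and 0 rose, with Krt14 at 13.21 on the PA-rich diet and 13.16 on the control diet.

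To place this diet effect, the levels were set beside those with PLKO, which the comparison itself does not use. The 116 genes that fell by more than 1 had a median level of 7.91 on the PA-rich diet and 9.45 on the control diet with shEGR2_40.9, against 7.83 and 8.10 with PLKO on the same diets. With shEGR2_40.9, 1 of the 116 genes was higher and 2 were lower than with PLKO on the PA-rich diet, and 112 were higher on the control diet. Both counts use shEGR2_40.9 arrays that also chose the genes, so neither is independent of that choice. The arrays of shEGR2_40.9 and PLKO shared only scan batch 5, so these level differences are partly mixed with scan batch. With shEGR2_38.9, the median diet difference of these 116 genes was -1.60, against -1.33 with shEGR2_40.9. Across all genes, 476 differed between shEGR2_40.9 and PLKO on the PA-rich diet (4.02%), 300 higher (2.53%) and 176 lower (1.49%). On the control diet 1436 differed (12.1%), 851 higher (7.19%) and 585 lower (4.94%), a split that became 801 and 803 after a renewed quantile normalization. Cdh5 shows the pattern, with means of 9.80 on the PA-rich diet and 11.38 on the control diet with shEGR2_40.9, against 9.78 and 10.07 with PLKO. Scn3a was at 5.66 on the PA-rich diet and 8.25 on the control diet with shEGR2_40.9, against 5.61 and 6.00 with PLKO. It passed the filter on dim genes only through the control diet groups of the EGR2 hairpins, so its high control level is no separate support. Lgi2 was the reverse, at 8.23 on the PA-rich diet and 6.89 on the control diet with shEGR2_40.9, against 7.91 and 8.49 with PLKO.

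**Figure D4:**
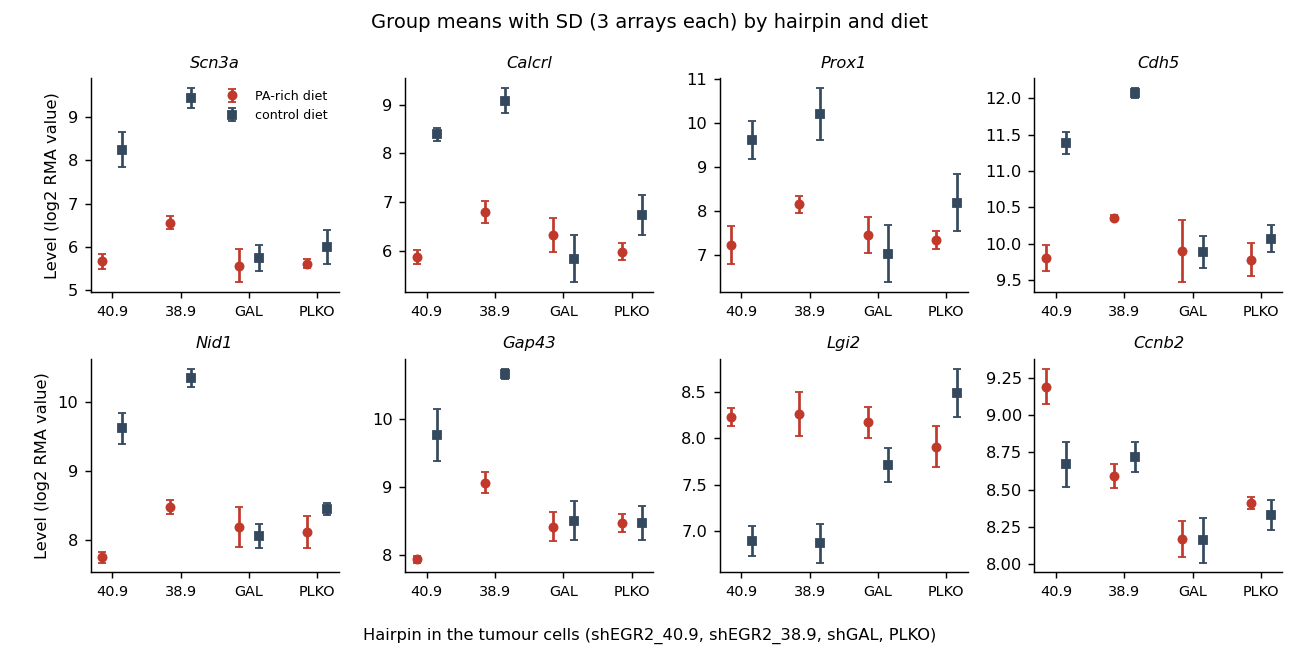
Points are group means on the log2 scale with SD over 3 arrays, for the PA-rich diet (circles) and the control diet (squares) with each hairpin, 1 panel per gene, each with its own vertical range. In Scn3a, Calcrl, Prox1, Cdh5, Nid1 and Gap43 the control diet means with both EGR2 hairpins lie above the other 6 groups, and in Lgi2 they lie below. Scn3a and Calcrl passed the filter on dim genes only through those control diet groups.

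The difference between diet effects was tested in the same model. Against PLKO, 493 genes differed (4.16%), 280 with a more negative effect (2.36%) and 213 with a more positive effect (1.8%) in shEGR2_40.9. Of the 26 pan-endothelial genes 9 and of the 13 lymphatic genes 7 had a more negative effect, and 0 a more positive one. Of the 44 cell cycle genes 0 differed in either direction. Galnt15 differed by -2.43 (adjusted p = 0.000901), Adam12 by -2.37 (adjusted p = 0.000789), Scn3a by -2.20 (adjusted p = 0.00012), Has2 by -1.87 (adjusted p = 1.17e-05) and Gap43 by -1.83 (adjusted p = 4.83e-05). For Scn3a the shEGR2_40.9 PA-rich mean (5.66) and both PLKO means (5.61 and 6.00) lay below the dim floor, so its difference is not exact. For Has2 the PLKO difference between diets was 0.74, of the opposite sign. For Prox1 the difference of -1.54 did not pass (SE 0.47, adjusted p = 0.0659), and Prox1 changed by -0.85 with PLKO. On the positive side were Lgi2 (1.91), Per2 (1.39), Hoxc13, a hair follicle homeobox gene (1.33), and the interferon genes Ifit1 (1.30) and Ifih1 (1.23), each past the threshold. With shEGR2_40.9 itself Lgi2 rose by 1.34, Per2 by 0.66, Hoxc13 by 0.60 and Ifih1 by 0.34. Part of each of these differences was thus a lower level on the PA-rich diet with PLKO. Sterol synthesis had 6 of 21 members with a more positive effect, Fdps at 0.96 (adjusted p = 1.17e-05) and Nsdhl at 1.04 (adjusted p = 0.000219), and both changed by -0.33 with PLKO.

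Against shGAL, 978 genes differed (8.26%), 628 more negative (5.3%) and 350 more positive (2.96%), a split that became 578 and 562 after a renewed quantile normalization. Of the pan-endothelial genes 17 of 26 and of the lymphatic genes 8 of 13 had a more negative effect with shEGR2_40.9. Calcrl differed by -3.02 (SE 0.30, adjusted p = 3.4e-06) and had means of 6.32 on the PA-rich diet and 5.83 on the control diet with shGAL. Its PA-rich mean with shEGR2_40.9 and its control mean with shGAL lay below the dim floor, so the difference is not exact. Sostdc1 differed by 1.49 (SE 0.16, adjusted p = 8.29e-06), with means of 9.03 and 9.26 on these diets with shGAL.

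Between the 2 EGR2 hairpins, 660 genes differed in diet effect (5.57%), 446 more negative (3.77%) and 214 more positive (1.81%) with shEGR2_40.9. Without shEGR2_38.9 control replicate 3 the count was 752, 464 more negative and 288 more positive, and 545 of these were among the 660. The list counts that follow include that array. Endothelial genes were not among the largest differences: of the 26 pan-endothelial genes, Icam2 (0.68, adjusted p = 0.00561) was more positive and Flt1 (-0.97, adjusted p = 0.0173) more negative with shEGR2_40.9, and of 13 lymphatic genes 0 differed. The difference for Cdh5 was 0.13 (SE 0.22, adjusted p = 0.823) and that for Scn3a 0.30 (SE 0.29, adjusted p = 0.643), which does not show that the effects were equal. With shEGR2_38.9 the median diet difference was -1.28 for pan-endothelial and -1.62 for lymphatic genes, against -0.94 and -1.38 with shEGR2_40.9. The endothelial falls were thus not particular to shEGR2_40.9, and the medians themselves were not tested. Smooth muscle genes differed instead, with 4 of 11 tested pericyte and smooth muscle members more positive and 0 more negative. Myh11, the smooth muscle myosin, was at 10.06 on the PA-rich diet and 9.83 on the control diet with shEGR2_40.9, against 7.27 and 10.10 with shEGR2_38.9, a difference in effect of 3.06 (SE 0.50, adjusted p = 0.000591). The contractile regulators Mylk and Myl9 differed by 2.74 and 1.74 in the same direction. Epidermal genes differed the other way, with 7 of 22 keratinocyte members more negative and 0 more positive, among them Sprr1b at -1.83. Outside that list, the desmosomal cadherin gene Dsc1 differed by -2.12 and the barrier lipoxygenase gene Alox12b by -2.02. Cell cycle genes had 5 of 44 members more positive and 0 more negative. Sprr1b fell with shEGR2_40.9 and was at 9.91 on the PA-rich diet and 8.66 on the control diet with shEGR2_38.9. Without shEGR2_38.9 control replicate 3, the array set apart, the differences were 3.25 for Myh11, 2.62 for Mylk, 1.85 for Myl9, -1.87 for Dsc1, -1.81 for Alox12b and -1.97 for Sprr1b, and each still passed.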

How the data were processed

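RNA from 24 mouse tumour stroma samples, 3 in each of 8 groups of hairpin and diet, was isolated with magnetic beads, amplified, biotin-labelled and hybridised to Affymetrix mouse arrays, per the labels' protocols. The authors deposited log2 values summarised by RMA in affy, per the submitters' processing notes, with no version given in the sources used here. RMA includes a quantile normalization, which forces equal distributions on the arrays and can shift genes that did not change when many change one way. The number of arrays limits the precision.

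Groups were taken from the array titles. Of 45141 probe sets, 28898 had 1 symbol in the platform annotation, 551 several and 15692 none. Of the probe sets with 1 symbol, 99.28% matched a current record by Entrez identifier. The probe set with the highest mean stood for a gene. A floor for dim genes was set at the 40th percentile of probe set means, which was 6.27, and 11844 of 17097 genes with a mean at or above it were kept (5253 were dim). No pair of arrays held identical values (0 pairs). One linear model of the 8 group means was fitted with limma 3.58.1 in R 4.3.3 (lmFit and eBayes, 16 residual and 6.21 prior degrees of freedom), two-sided, with Benjamini-Hochberg adjustment over all genes kept and a threshold of 0.05, and the fit was tested on simulated data. Each replicate number of shEGR2_40.9 had its own scan batch by the labels, so the numbers pair the arrays by batch. Deviations from the group means correlated at 0.17, 0.11 and -0.02 for same-numbered arrays and at -0.19 to 0.11 for others.

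Named genes were the 25 largest falls and 25 largest rises past the threshold with the same sign in all 3 replicate numbers, the 10 largest each way for other contrasts, Egr2, Gal and members of 45 gene lists. Members and lists were chosen with earlier results of these data known, and no set test was run. The alternatives were a block for scan batch, the filter, the probe set per gene, 2 renewed normalizations, the arrays in the fit, the variance model, array weights and arrays left out in turn.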

Additional observations from a re-analysis of the deposited data

Results flagged for a closer look

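Among the 50 genes with the largest diet changes, the diet difference of some had opposite signs with shEGR2_40.9 and with another hairpin. One of these 50 is given here if its PA-rich minus control diet difference had 1 sign in all 3 replicate numbers with shEGR2_40.9 and the opposite sign in all 3 of the other hairpin, and if the difference between the effects passed an adjusted p of 0.05 in limma with Benjamini-Hochberg adjustment. The other hairpin's own diet difference was not tested, so the rule shows that the effects differ and not that the other effect is real. Some of those differences were small, such as -0.08 for Nt5dc2 with PLKO. All values are on the log2 scale.

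Against shGAL, 4 falling genes of vessel and transport biology met this. The effect differed by -2.35 for Selenop (-2.02 with shEGR2_40.9 and 0.33 with shGAL), by -2.33 for the solute carrier gene Slc45a3 (-2.12 and 0.21), by -2.29 for Angpt2 (-1.91 and 0.39) and by -2.24 for Itga9 (-1.81 and 0.43). On the rising side, the interferon gene Usp18 differed by 1.01 (0.77 and -0.24) and Foxq1, a forkhead transcription factor of hair and epithelium, by 1.28 (0.74 and -0.53).

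Against PLKO, rising genes among the 50 met this. Lgi2 differed by 1.91 (1.34 with shEGR2_40.9 and -0.58 with PLKO), Aqp9 by 1.49 (0.84 and -0.64) and Tmigd1 by 1.42 (0.89 and -0.53). Tent5a differed by 1.21 (0.87 and -0.33), the neuronal serine protease gene Prss12 by 1.20 (0.71 and -0.50) and the complement gene C1s1 by 1.16 (0.79 and -0.37). Foxq1 differed by 1.05 (0.74 and -0.30) and Nt5dc2 by 0.77 (0.70 and -0.08). Has2, which is not among the 50, changed by -1.13 with shEGR2_40.9 and 0.74 with PLKO, a difference of -1.87. Foxq1 lost its own diet call in at least 1 fit with an array left out.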

How the results depend on the processing

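The diet effect with shEGR2_40.9 gave 1060 genes, and between 914 and 1267 under the other filters, probe set choice, normalizations, variance model and the fit of only the arrays compared. With array weights it gave 2128 (1074 higher and 1054 lower, against 442 and 618). The scan batch as a replicate block gave 1163 genes (488 higher and 675 lower). A setting chosen after seeing the data, the same block on the 6 arrays alone, gave 1136. Of 190 list members and named genes that passed, 8 lost their call under the block (Bub1b, Etfdh, Ifih1, Me1, Saa3, Scd1, Tm7sf2 and Wnt4). Without single arrays the diet count ran from 689 to 849 for the shEGR2_40.9 arrays and was 1534 without shEGR2_38.9 control replicate 3, and PA-rich replicates 2 and 3 gave 689 and 691.

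The difference from PLKO in diet effect (493 genes) became 762 with only the arrays compared and 1204 with array weights. Its lowest count was 282, when shEGR2_40.9 PA-rich replicate 3 was left out, and its highest 854, when shEGR2_38.9 control replicate 3 was left out, with 296, 325, 313 and 297 without shEGR2_40.9 PA-rich replicate 1, PA-rich replicate 2, control replicate 1 and PLKO PA-rich replicate 1. The difference from shEGR2_38.9 (660) became 431 and 1294 under the first and second of these settings and ran from 454 to 800. The difference from shGAL (978) became 2295 with array weights and ran from 640 (without shGAL control replicate 2) to 1518 (without shEGR2_38.9 control replicate 3). On the PA-rich diet, shEGR2_40.9 against PLKO (476) became 1044 with only the arrays compared and 1799 with array weights, and ran from 232 to 789 (789 without shEGR2_38.9 control replicate 3). It fell to 248 and 232 without shEGR2_40.9 PA-rich replicates 2 and 3, and to 285, 279 and 296 without PLKO PA-rich replicates 1, 2 and 3. With scan batch as a block it was 328, of which 267 were among the 476. On the control diet, shEGR2_40.9 against PLKO (1436) became 950 with only the arrays compared. It ran from 943 (without PLKO control replicate 3) to 2082 (without shEGR2_38.9 control replicate 3). With scan batch as a block it was 1374, of which 1085 were among the 1436. The cause of these shifts was not tested.

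None of the 52 genes followed through each setting (the 50 with the largest changes, Egr2 and Gal) changed its sign. Of the 50 genes named for the largest changes, 46 kept their call in every setting. Egfl6, Foxq1 and Mmp10 lost it with an array left out, and Knstrn with its most variable probe set (0.23, adjusted p = 0.476). Egr2 (0.33, adjusted p = 0.0566) had adjusted p between 0.00295 and 0.194 and passed in 6 settings.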
